A study of Mus musculus with 20 samples.

Results

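The genes described here are 34 genes of protein folding and stress signalling in the endoplasmic reticulum (ER), taken by symbol and matched to the Ensembl identifiers of a count table of 63318 genes in mouse heart tissue. They comprise 12 ER chaperones and folding factors, 4 protein disulfide isomerases, 7 genes of ER-associated degradation and the translocon, 4 stress sensors and transcription factors, and 7 genes of the integrated stress response. All 34 passed the filter on low counts. Short-read poly(A) libraries were made for 4 groups of 4 libraries: myocardial infarction (MI), sampled 72 h after surgery, its sham operation (MISham), ischemia-reperfusion (IR), with 40 min of what the labels call "LCA", left unexplained there, followed by 72 h of reperfusion, and its sham operation (IRSham). Tissue of MI and MISham held the infarct core with its periphery, whereas IR and IRSham tissue was core only, which means that injury type cannot be told apart from region. The labels give no strain, sex, age or sham sampling time, and do not say whether libraries are separate animals, so every p-value measures the spread between these libraries, which may be technical. A further 4 long-read libraries, 1 per group, have no values in the tables and were not analysed here.

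The ER folds secreted and membrane proteins with chaperones such as BiP (encoded by Hspa5), and cells that secrete much protein, such as plasma cells and activated fibroblasts, carry large amounts of this machinery. When unfolded protein builds up, 3 membrane sensors start the unfolded protein response: IRE1 (Ern1) splices Xbp1 mRNA, ATF6 is cut to release a transcription factor, and PERK (Eif2ak3) slows translation and favours ATF4. ATF6 and XBP1 switch on chaperone and degradation genes, largely through a promoter element called the ER stress response element (ERSE), and ATF4 switches on amino acid and redox genes through the CARE element. PERK's target eIF2α is shared with other stress kinases, so ATF4 targets also respond to stresses outside the ER. Heart muscle holds an ER specialised for calcium, and chaperones such as calreticulin (Calr) also bind calcium.

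The promoters of these genes are shown because the element that defines the ATF6 and XBP1 branch can be read directly in them. RefSeq windows of 300 bases (250 before to 50 after the start, build GRCm38.p6) were found for 30 of the 34 members, and Atf6, Manf, Hyou1 and Derl1 had no entry. The ERSE (CCAAT, any 9 bases, CCACG, on either strand) lay in the windows of 9 of the 30 members (30%), against 0.137% of all 27025 genes with a window. Capitals mark the element, with 5 bases on each side, read 5′ to 3′ on the gene's strand:
Hspa5 (chr2:34772020-34772048, plus strand): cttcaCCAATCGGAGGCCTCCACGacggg
Hsp90b1, distal (chr10:86705633-86705661, minus strand): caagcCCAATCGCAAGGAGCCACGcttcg
Hsp90b1, proximal (chr10:86705528-86705556, minus strand): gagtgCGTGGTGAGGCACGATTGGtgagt
Calr (chr8:84847070-84847098, minus strand): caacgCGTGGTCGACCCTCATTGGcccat
Canx (chr11:50325795-50325823, minus strand): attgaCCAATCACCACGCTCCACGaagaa
Creld2 (chr15:88819515-88819543, plus strand): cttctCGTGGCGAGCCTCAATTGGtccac
Dnajc3 (chr14:118937822-118937850, plus strand): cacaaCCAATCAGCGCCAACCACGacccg
Pdia6 (chr12:17266486-17266514, plus strand): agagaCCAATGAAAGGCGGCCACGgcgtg
Derl3 (chr10:75893237-75893265, plus strand): tctacCGTGGGACTTCCCCATTGGctagc
Syvn1 (chr19:6046527-6046555, plus strand): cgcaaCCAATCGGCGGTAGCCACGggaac
The element was found in the reverse orientation in Calr, Creld2, Derl3 and the proximal copy of Hsp90b1. Its first base lay 65 bases before the start in Hspa5 and 212 bases before it in the distal copy of Hsp90b1.

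The related ERSE-II (ATTGG, any base, CCACG) lay in 2 of the 30 members (6.67%), Herpud1 and Dnajb11, against 0.0444% of all genes; in Dnajb11 it lay just after the start. The CARE (TGATG, any base, AA) lay in 4 (13.3%), Asns, Chac1, Herpud1 and Trib3, against 4.51% of all genes. Herpud1 carried both kinds within its upstream window, and the elements of Herpud1 and the upstream CARE of Asns and Chac1 are shown with capitals on the match:
Herpud1, ERSE-II (chr8:94386372-94386392, plus strand): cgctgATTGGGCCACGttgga
Herpud1, CARE (chr8:94386312-94386329, plus strand): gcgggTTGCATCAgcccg
Asns, CARE (chr6:7693220-7693237, minus strand): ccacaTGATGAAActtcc
Chac1, CARE (chr2:119351044-119351061, plus strand): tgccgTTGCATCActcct
The UPRE (TGACGTGG) was found in 0 of the 30 members and in 0.714% of all genes. A match describes the letters of these windows and says nothing of which factor bound there. No member had both an ERSE and an ERSE-II.

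Totals per library were 57215382 to 63070805 counts in MI and 24273984 to 31832969 in the other groups. The MI libraries thus had the smallest counting error. The marker genes of cardiomyocytes were present in every library, and none of the 12 was at 0 in any group. Their summed level ran from 12575 to 23231 CPM (counts scaled by TMM to a common library total) in MI, 69869 to 84295 in MISham, 13783 to 27781 in IR and 74129 to 80625 in IRSham. Within groups, MISham replicates 1 and 3 had more summed fibroblast marker RNA (6962 and 9557 CPM) than replicates 2 and 4 (2590 and 3731), and IR replicates 1 and 3 had more cardiomyocyte marker RNA (27781 and 25798 CPM) than replicates 2 and 4 (13783 and 14794). Counts that lead a paragraph are therefore also given without them. In bulk tissue, fewer cells of a type and less RNA per cell cannot be told apart.

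Most of the folding genes were higher after both injuries. Against MISham, 21 of the 34 members were higher in MI and 4 lower, where 34.8% of the 19741 genes tested were called higher and 30.2% lower (edgeR quasi-likelihood test, adjusted p under 0.05). Against IRSham, 23 members were higher in IR and 4 lower, where 29.5% of all genes were called higher and 28.2% lower. Counts of rises and falls in roles, lists and markers below are to be read beside these shares. Groups without overlap were also common over all genes tested, at 62.8% between MI and MISham and 51.4% between IR and IRSham. Between MI and IR the share was 14.4%. The median log2 fold change of the members was 0.51 in MI and 0.62 in IR, beside 0.08 and 0.03 over all genes tested. Of these, 19 members were higher in both comparisons and 3, Herpud1, Atf6 and Ddit3, were lower in both. Leaving out MISham replicates 1 and 3, 20 members were higher in MI and 4 lower, and leaving out IR replicates 1 and 3, 23 were higher in IR and 3 lower. Scaling by library size alone moved the median of all genes to 0.39 in MI and 0.32 in IR, and gave 27 members higher and 3 lower in MI and 26 higher and 2 lower in IR. With it 9318 of the 19741 genes were called higher and 4270 lower in MI, and 8411 higher and 3754 lower in IR. Of the called genes, 68.6% were then higher in MI and 69.1% in IR, against 53.5% and 51.1% with TMM.

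**Figure D1:**
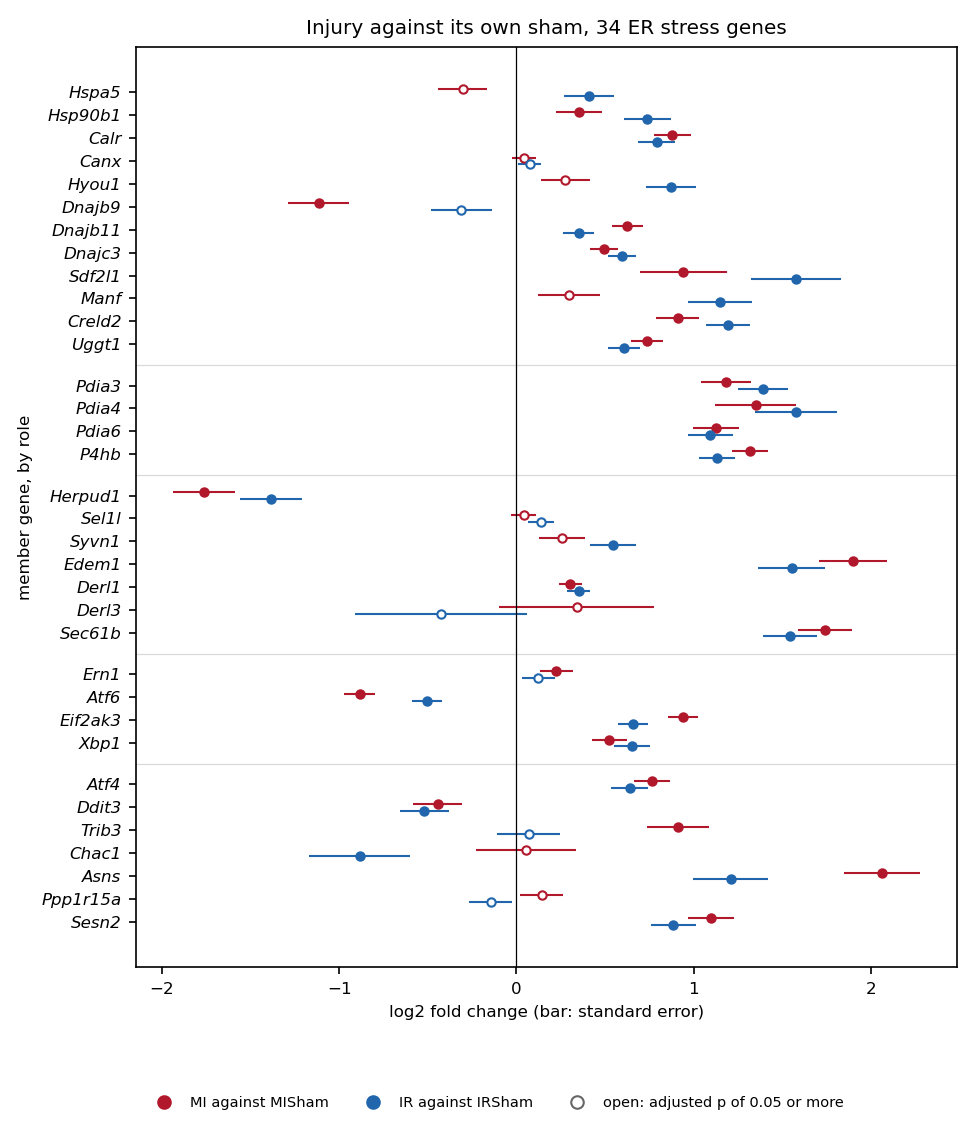
Log2 fold change of each of the 34 members (rows, grouped by role) in MI against MISham (red) and IR against IRSham (blue), with bars for the standard error and open circles for adjusted p of 0.05 or more. Edem1 and Sec61b lie far to the right in both comparisons, Asns (2.06) in MI, and Herpud1 far to the left in both, while Hspa5 lies at -0.30 in MI and 0.41 in IR.

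The 4 protein disulfide isomerases, which form and rearrange disulfide bonds in folding proteins, rose in both injuries. P4hb, which is also the beta subunit of the collagen prolyl hydroxylase, stood at 999, 1020, 950 and 1040 CPM in MI and 438, 329, 451 and 391 in MISham, and at 917, 1108, 870 and 996 in IR and 428, 441, 470 and 436 in IRSham. Its log2 fold changes were 1.32 ± 0.10 (SE, n = 4 libraries per group) in MI and 1.13 ± 0.10 in IR (adjusted p = 1.16e-08 and 1.23e-07, edgeR). Every injured library was above every sham library, and the injured groups overlapped each other.

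Pdia4 was measured at 214, 238, 193 and 217 CPM in MI, 79.4, 43.8, 98.9 and 116 in MISham, 122, 181, 160 and 158 in IR, and 39.9, 51.7, 58.1 and 59.1 in IRSham. It rose by 1.35 ± 0.23 in MI and 1.57 ± 0.23 in IR on the log2 scale, 2.55-fold and 2.98-fold. MISham replicate 2 was the lowest of its group and lay among the IRSham libraries, while the other 3 were above all of them. For Pdia3, the partner of calnexin and calreticulin on glycoproteins, the levels were 759, 805, 645 and 774 CPM in MI, 335, 230, 365 and 385 in MISham, 604, 747, 609 and 675 in IR, and 207, 267, 265 and 267 in IRSham. For Pdia6 they were 489, 539, 428 and 498 CPM in MI, 232, 166, 251 and 249 in MISham, 349, 497, 388 and 426 in IR, and 175, 194, 205 and 204 in IRSham. The log2 fold changes of Pdia3 were 1.18 ± 0.14 and 1.39 ± 0.14, and those of Pdia6 1.12 ± 0.13 and 1.09 ± 0.13, in MI and IR in turn. None of the 4 was called between the sham groups by edgeR with all libraries, where DESeq2 called Pdia4 higher in MISham (0.72, adjusted p = 0.0297). Without MISham replicate 2, Pdia3 and Pdia4 were higher in MISham than in IRSham, by 0.52 and 0.91 (adjusted p = 0.0115 and 0.00166, edgeR).

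Fibroblast marker RNA moved with these genes: the 12 markers summed to 23843 to 28829 CPM in MI against 2590 to 9557 in MISham, and to 27981 to 32668 in IR against 6226 to 9199 in IRSham. None of them was at 0, 10 of 12 rose and 1 fell in MI, and 11 rose in IR. Of 23 other genes of collagen folding and export in the ER, 21 rose in MI and 20 in IR, and 0 fell, with medians of 1.26 and 1.12. The largest rises in MI were in P4ha3, a collagen prolyl hydroxylase subunit (4.53 ± 0.41), and Creb3l1, a transcription factor of secretory cells (2.05 ± 0.29). Macrophage markers, 12 of 12 higher in MI and 11 in IR, and markers of plasma and B cells, with 7 higher and 1 lower of 11 in MI and 4 and 1 in IR, moved too. Of a mean plasma and B cell sum of 150 CPM in MI, Sdc1 gave 99.8 and Fkbp11 23.2, beside 16.8 and 4.90 in MISham. Mzb1 (0.14 against 0.92 CPM), Tnfrsf17 (0.036 against 0.30) and Jchain (1.08 against 1.46) had low levels and lower means in MI than in MISham. Proliferation markers rose in 10 of 10 genes in both injuries, neutrophil markers in 6 of 7 in MI and 3 of 7 in IR, and of 10 endothelial markers 4 rose and 2 fell in MI and 1 rose and 4 fell in IR. The part of cell makeup in the members' changes was not tested.

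Among 14 other genes of oxidative folding, 11 rose and 2 fell in each injury, as Pdia5 (1.73 ± 0.14 in MI) and Txndc5 (1.69 ± 0.14) rose and Tmx4 (-0.64 ± 0.07) and Tmx1 (-0.19 ± 0.07) fell.

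The chaperones moved less uniformly. Of the 12, 7 were higher and 1 lower in MI, and 10 were higher and 0 lower in IR. Over all genes tested, 34.8% were called higher and 30.2% lower in MI, and 29.5% and 28.2% in IR. Calr, a lectin chaperone, rose by 0.88 ± 0.10 in MI and 0.79 ± 0.10 in IR. Dnajb11, a BiP co-chaperone, rose by 0.62 ± 0.09 and 0.35 ± 0.09. Dnajc3, which also inhibits eIF2α kinases, stood at 164, 153, 147 and 172 CPM in MI, 111, 98.2, 116 and 126 in MISham, 117, 137, 140 and 134 in IR, and 83.8, 85.4, 87.5 and 92.7 in IRSham, and rose by 0.49 ± 0.08 and 0.60 ± 0.08. Canx, the membrane-bound lectin chaperone, stood at 459, 438, 424 and 462 CPM in MI, 421, 405, 439 and 467 in MISham, 356, 383, 378 and 384 in IR, and 359, 358, 359 and 350 in IRSham. MI overlapped MISham and IR overlapped IRSham, while both MI and MISham lay above both IR and IRSham. Canx passed the test in neither injury, at 0.04 ± 0.07 (adjusted p = 0.598, edgeR) and 0.07 ± 0.07 (adjusted p = 0.351).

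Hspa5 encodes BiP, the main ER chaperone and the protein that holds the sensors inactive, and its promoter carries the ERSE shown above. Its levels were 1087, 1068, 1094 and 1184 CPM in MI, 1276, 1009, 1375 and 1813 in MISham, 701, 937, 954 and 872 in IR, and 654, 661, 637 and 657 in IRSham. The IRSham libraries lay close together, whereas MISham was widely spread and overlapped MI. Hspa5 was 0.30 ± 0.14 lower on the log2 scale in MI than in MISham and did not pass the test (adjusted p = 0.0642, edgeR), and rose by 0.41 ± 0.14 in IR (adjusted p = 0.0183). Without MISham replicate 2 the MI value was -0.42 with an adjusted p of 0.00734, and with DESeq2 -0.36 with 0.0191, while summed TPM gave 0.43. Without IR replicate 3 the IR value was 0.36 (adjusted p = 0.0502, edgeR).

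Dnajb9, a BiP co-chaperone that represses IRE1, was counted at 40.1, 36.2, 47.3 and 49.3 CPM in MI, 82.2, 68.1, 85.2 and 139 in MISham, 36.9, 38.8, 44.0 and 34.5 in IR, and 51.1, 48.7, 44.8 and 46.7 in IRSham. It fell by 1.11 ± 0.17 on the log2 scale in MI (adjusted p = 3.08e-05, edgeR) and was at -0.31 ± 0.17 in IR (adjusted p = 0.135). Every MISham library was above every library of the other 3 groups.

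Manf, a secreted folding factor, stood at 112, 113, 123 and 121 CPM in MI, 85.9, 60.3, 107 and 129 in MISham, 60.4, 87.9, 95.3 and 85.1 in IR, and 34.4, 38.2, 38.1 and 37.7 in IRSham. Hyou1, a nucleotide exchange factor for BiP, stood at 188, 194, 181 and 202 CPM in MI, 144, 114, 170 and 205 in MISham, 107, 137, 148 and 131 in IR, and 67.6, 79.5, 64.3 and 74.7 in IRSham. In both genes MISham replicate 4 was above every MI library, so MI and MISham overlapped, and every IR library was above every IRSham library. Manf rose by 1.15 ± 0.18 in IR and was at 0.30 ± 0.18 in MI (adjusted p = 0.155, edgeR). Hyou1 rose by 0.87 ± 0.14 in IR and was at 0.27 ± 0.14 in MI (adjusted p = 0.094, edgeR). Without MISham replicate 4 both passed the test in MI, at 0.48 and 0.42 (adjusted p = 0.0187 and 0.00765, edgeR).

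Hsp90b1 (GRP94), which folds integrins and Toll-like receptors, was measured at 833, 858, 793 and 824 CPM in MI, 610, 470, 694 and 818 in MISham, 513, 686, 672 and 624 in IR, and 360, 359, 405 and 373 in IRSham. Creld2, a disulfide isomerase-like stress gene, was measured at 62.7, 65.1, 61.1 and 65.6 CPM in MI, 32.6, 24.1, 38.1 and 40.7 in MISham, 36.9, 42.7, 46.5 and 40.2 in IR, and 15.9, 19.1, 19.2 and 18.6 in IRSham. Sdf2l1, a component of ER chaperone complexes, was measured at 57.0, 66.5, 53.1 and 66.5 CPM in MI, 28.7, 15.8, 34.4 and 47.7 in MISham, 37.4, 57.1, 47.2 and 48.6 in IR, and 13.3, 19.3, 14.2 and 17.1 in IRSham. All 3 rose in both injuries, by 0.35 ± 0.13 and 0.74 ± 0.13 for Hsp90b1, 0.91 ± 0.12 and 1.19 ± 0.12 for Creld2, and 0.94 ± 0.24 and 1.58 ± 0.25 for Sdf2l1, in MI and IR in turn. The call for Hsp90b1 in MI was lost without MI replicate 2, MISham replicate 1 or MISham replicate 2, with adjusted p = 0.0543, 0.0639 and 0.0939 (edgeR). Creld2 in MISham overlapped IR but neither MI nor IRSham.

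**Figure D2:**
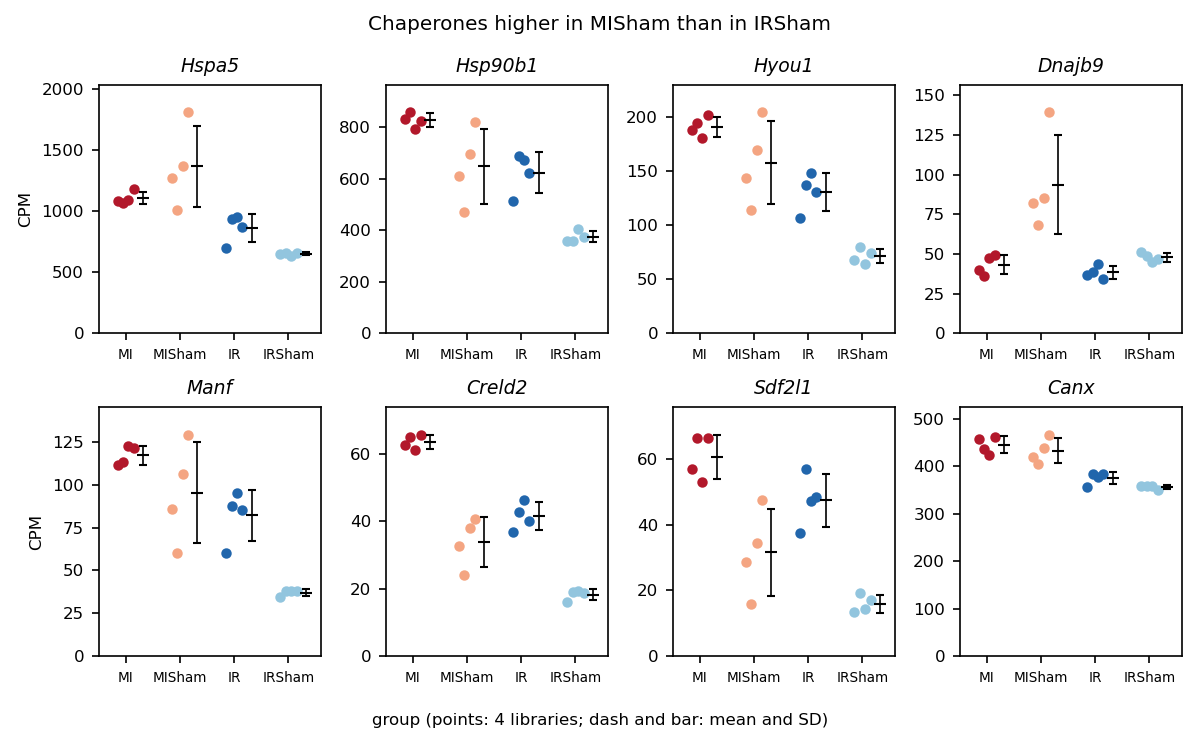
CPM (TMM-scaled) of 8 chaperones in the 16 libraries, with points for libraries and a dash and bar for the mean and SD of each group. IRSham (light blue) is tight in each panel and has the lowest mean in each except that of Dnajb9, whereas MISham (orange) is wider and, for Hspa5 and Dnajb9, has the highest mean of the 4 groups, 1368 and 93.7 CPM.

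The sham groups themselves differed in the chaperones. MISham was above IRSham in 10 of 34 members and below it in 0, where 2.34% of all genes were called higher and 0.866% lower. Of those 10, 9 were among the 12 chaperones and the other was Atf6. The differences were 1.37 ± 0.18 on the log2 scale for Manf, 1.14 ± 0.14 for Hyou1, 1.07 ± 0.14 for Hspa5, 0.99 ± 0.25 for Sdf2l1, 0.97 ± 0.17 for Dnajb9, 0.89 ± 0.12 for Creld2, 0.79 ± 0.13 for Hsp90b1, 0.37 ± 0.08 for Dnajc3 and 0.28 ± 0.07 for Canx. In linear terms Manf was 2.58-fold, Hyou1 2.21-fold and Hspa5 2.10-fold higher in MISham than in IRSham, with adjusted p = 0.000157, 4.31e-05 and 6.17e-05 (edgeR). These 3 were called under each of the 16 alternatives run for that comparison. Of those 16, the call was lost in 14 for Sdf2l1, 9 for Canx and 7 for Atf6. It was lost in 2 each for Dnajb9 and Dnajc3, and in 1 each for Hsp90b1 and Creld2. For Sdf2l1 these included library size alone (adjusted p = 0.0571, edgeR) and the replicate block (0.0667, edgeR). Every MISham library was above every IRSham library in 11 members, where that held for 4.66% of all genes tested. The calls for Canx, Sdf2l1 and Atf6 were lost when single libraries were left out, with adjusted p up to 0.0832 for Canx (without MISham replicate 4), 0.146 for Sdf2l1 (without MISham replicate 4) and 0.0938 for Atf6 (without IRSham replicate 4).

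In the other lists of the pathway few genes were called. Between the shams, edgeR called 0 of 14 other oxidative folding genes and 0 of 17 other sensors and regulators. It also called 0 of 29 other ATF4 and integrated stress response genes. In each of the lists of collagen folding (23) and of translocon and glycosylation genes (27), 0 were higher and 1 was lower. Of 20 degradation genes 1 was higher and 1 lower. No marker of cardiomyocytes, fibroblasts, endothelium or plasma and B cells was called between the shams, and the plasma and B cell markers summed to 30.2 to 50.8 CPM in MISham and 36.0 to 48.4 in IRSham. Of the macrophage markers 1 of 12 was lower in MISham, and their sums ran from 701 to 1623 CPM there and 1257 to 1980 in IRSham. Median log2 differences between the shams were -0.63 for macrophage, -0.47 for fibroblast and -0.35 for proliferation markers. They were -0.12 for plasma and B cell, -0.06 for endothelial, -0.05 for neutrophil and 0.08 for cardiomyocyte markers. The lack of calls thus does not show equal cell makeup. Leaving out MISham replicates 1 and 3, 9 members were higher, with 1.11 for Hspa5, 1.15 for Hyou1, 1.35 for Manf and 1.12 for Dnajb9, and 1, Edem1, was lower (-0.77, adjusted p = 0.00296, edgeR). Sham surgery, sampled region and sampling time cannot be told apart in this comparison. By promoter, 5 of the 7 higher chaperones with a RefSeq window carried an ERSE, and 4 of the 23 other members with a window did. The first set was chosen by this same comparison and held only chaperones, so the counts cannot separate role from sham difference. Calr, a chaperone not called between the shams, also carried an ERSE, and Manf and Hyou1 had no window. Whether the element had a part in the sham difference was not tested.

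On the log2 scale the difference between MI and IR is the sum of 2 parts, the difference between the shams and the difference between the injury responses (MI against MISham minus IR against IRSham). No member was called in the response difference by edgeR, where 0.192% of all genes were called, though 5 members were higher and 5 lower at an unadjusted p under 0.05, as 14.7% of all genes were. DESeq2 called 1 member higher, Trib3 (0.79 ± 0.25, adjusted p = 0.0477), and 4 lower, where it called 2.66% of all genes in either direction: Hspa5 (-0.77 ± 0.20, 0.013), Manf (-0.90 ± 0.26, 0.0292), Dnajb9 (-0.86 ± 0.25, 0.0339) and Atf6 (-0.43 ± 0.13, 0.0433). The edgeR values for the 4 that were lower were -0.71 ± 0.20, -0.85 ± 0.25, -0.80 ± 0.24 and -0.38 ± 0.12, each within 1 SE of the DESeq2 value. Leaving out MISham replicates 1 and 3, edgeR called 1 of 34 members, Edem1, higher, where 5.18% of all genes were called in either direction. Leaving out IR replicates 1 and 3, it called 0 of 34 members and 129 of the 20893 genes then tested.

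MI was above IR in 8 of 34 members and below it in 0, where 4.77% of all genes were called higher and 2.2% lower. Hspa5 was 0.36 ± 0.14 higher in MI than in IR, Manf 0.51 ± 0.18 and Dnajb9 0.17 ± 0.17, and none of these passed the test. The 8 that did were Canx (0.25 ± 0.07), Hyou1 (0.55 ± 0.14), Dnajb11 (0.36 ± 0.09), Dnajc3 (0.27 ± 0.08), Creld2 (0.61 ± 0.12), Derl3 (1.69 ± 0.46), Trib3 (0.84 ± 0.17) and Asns (0.93 ± 0.20). Without IR replicate 1, the lowest of its group in Hspa5, Hyou1, Manf and Creld2, 3 members were called, without MI replicate 1, 2 or 4 there were 5, and leaving out IR replicates 1 and 3 there were 3.

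**Figure D3:**
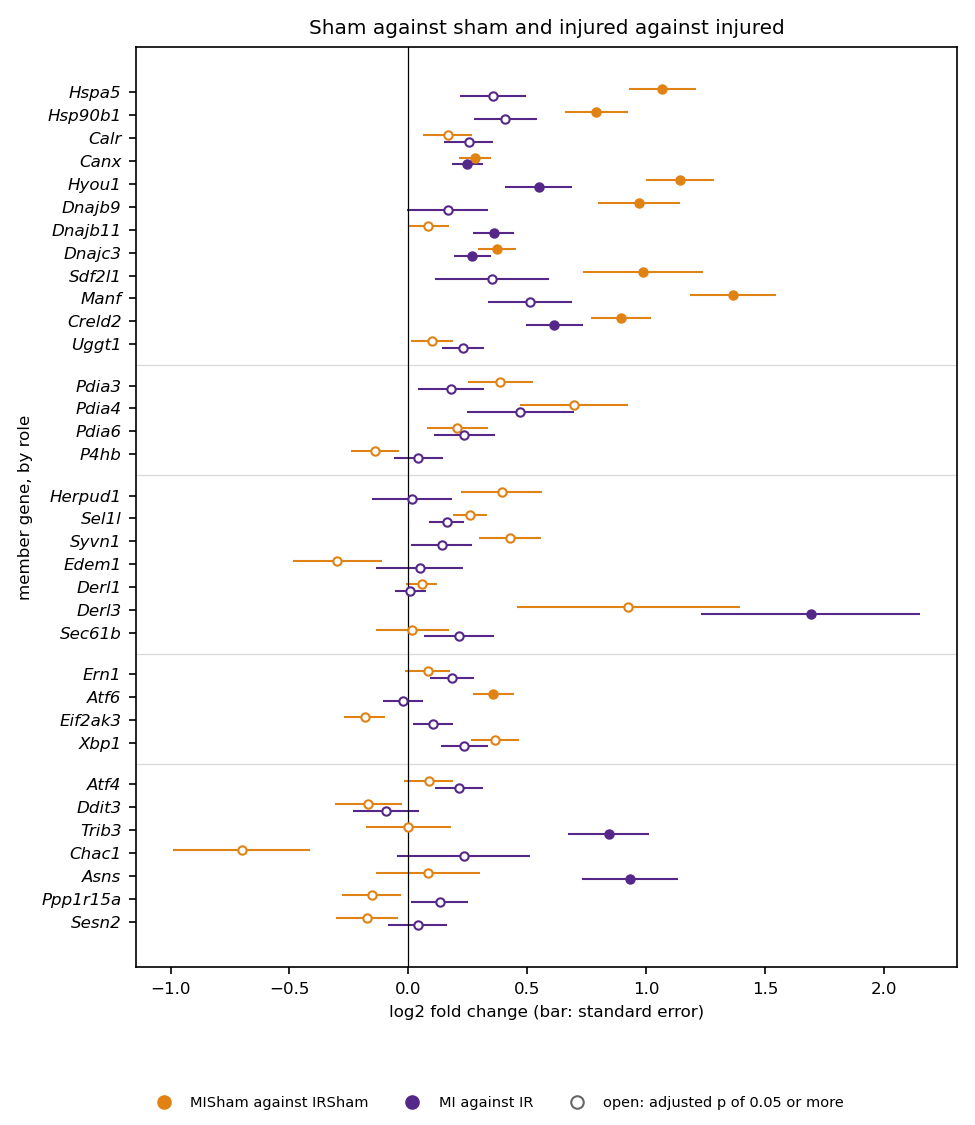
Log2 fold change of each member in MISham against IRSham (orange) and MI against IR (purple), with bars for the standard error and open circles for adjusted p of 0.05 or more. Filled orange circles lie mostly in the chaperone block at the top, from 0.28 for Canx to 1.37 for Manf, and Atf6 is the other one.

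The degradation genes went in opposite directions. Herpud1, a scaffold of the HRD1 degradation complex and a classical target of both the ERSE-II and the CARE shown above, fell in both injuries. It stood at 73.5, 63.6, 83.2 and 76.0 CPM in MI and 227, 226, 229 and 321 in MISham, and at 78.3, 58.2, 100 and 56.3 in IR and 219, 199, 179 and 168 in IRSham. The change was -1.76 ± 0.17 in MI and -1.38 ± 0.17 in IR, 3.39-fold and 2.61-fold lower (adjusted p = 2.8e-07 and 5.19e-06, edgeR). The injured libraries overlapped each other and lay below every sham library. In the same libraries Edem1, which hands misfolded glycoproteins to degradation, rose the most of the degradation genes. It was measured at 159, 168, 136 and 167 CPM in MI, 54.0, 27.3, 54.1 and 33.5 in MISham, 136, 167, 140 and 166 in IR, and 41.1, 52.2, 58.7 and 55.9 in IRSham. Edem1 rose 3.73-fold in MI and 2.93-fold in IR (log2 1.90 ± 0.19 and 1.55 ± 0.19).

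Sec61b, a subunit of the channel through which new proteins enter the ER, stood at 55.3, 57.0, 53.9 and 55.4 CPM in MI, 18.1, 10.7, 21.4 and 16.0 in MISham, 41.3, 50.1, 49.8 and 49.9 in IR, and 13.6, 15.4, 17.4 and 19.0 in IRSham. It rose by 1.74 ± 0.15 in MI and 1.54 ± 0.15 in IR, and the 2 sham groups overlapped. Of the 27 other genes of the translocon and N-glycosylation 24 rose in each injury, as in Sec61a1, the channel's main subunit (1.54 ± 0.12 in MI), and Stt3a, a catalytic subunit of oligosaccharyltransferase (1.53 ± 0.12). The list had 2 genes lower in MI, Calr3 (-1.46 ± 0.26) and Uggt2 (-0.25 ± 0.09), and 1 lower in IR.

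The other degradation members moved less. Derl1, a channel component of degradation, rose by 0.30 ± 0.07 and 0.35 ± 0.07. Syvn1, the HRD1 ubiquitin ligase, rose by 0.54 ± 0.13 in IR and was at 0.26 ± 0.13 in MI (adjusted p = 0.0905, edgeR). Its partner Sel1l was at 0.04 ± 0.07 and 0.14 ± 0.07 and passed the test in neither. Derl3 was the lowest member, between 0.483 and 4.27 CPM in all 16 libraries, and passed the test in neither injury (0.34 ± 0.44 and -0.43 ± 0.48). In MI replicate 3 it stood at 4.27 CPM, beside 1.80, 1.53 and 1.75 in the others, and its call between MI and IR was lost without that library (1.23, adjusted p = 0.108, edgeR). The call was also lost without IR replicate 1, 2 or 3, at 1.69, 1.64 and 1.54 (adjusted p = 0.0874, 0.0766 and 0.0677, edgeR). Among 20 other degradation genes, 10 rose and 6 fell in MI and 9 and 8 in IR, with Os9 (0.93 ± 0.09) and Edem2 (0.92 ± 0.11) the largest rises in MI and Rnf139 (-0.78 ± 0.08) and Erlec1 (-0.60 ± 0.10) the largest falls. Over all genes tested, 34.8% rose and 30.2% fell in MI, and 29.5% and 28.2% in IR.

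The 3 sensors did not move together. Atf6 fell, from 199, 221, 204 and 207 CPM in MISham to 115, 101, 120 and 114 in MI, and from 183, 158, 156 and 151 in IRSham to 120, 102, 131 and 103 in IR. Eif2ak3 rose, from 19.2, 16.1, 18.1 and 16.5 CPM in MISham to 32.3, 33.3, 33.0 and 35.6 in MI, and from 20, 18.4, 21.6 and 19.4 in IRSham to 27.2, 31.7, 31.3 and 34.7 in IR. For Ern1 the groups overlapped, at 50.9, 47.2, 43.7 and 45.9 CPM in MI, 40.3, 41.7, 44.1 and 34.5 in MISham, 34.1, 41.0, 43.4 and 46.7 in IR, and 36.7, 37.3, 36.3 and 41.4 in IRSham. In log2 terms Atf6 changed by -0.88 ± 0.09 in MI and -0.50 ± 0.09 in IR, Eif2ak3 by 0.94 ± 0.09 and 0.65 ± 0.09, and Ern1 by 0.22 ± 0.09 and 0.12 ± 0.09. The call for Ern1 in MI (adjusted p = 0.0428, edgeR) was lost without MI replicate 1, 2 or 4 or MISham replicate 1, 2 or 4, with adjusted p up to 0.151, and with DESeq2 (0.127). Atf6 was also higher in MISham than in IRSham, by 0.36 ± 0.09, and at -0.02 between MI and IR. With summed TPM, which is not rescaled between libraries, the IR value of Atf6 turned to 0.17, and after TMM rescaling it was negative again.

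Xbp1, the transcription factor made active when IRE1 splices its mRNA, stood at 172, 184, 177 and 188 CPM in MI, 129, 105, 129 and 139 in MISham, 132, 168, 161 and 152 in IR, and 85.4, 116, 93.3 and 94.8 in IRSham. It rose by 0.52 ± 0.10 in MI and 0.65 ± 0.10 in IR, and no injured library overlapped its own sham. These are total levels. Whether any annotated transcript separates spliced from unspliced Xbp1 was not checked, so IRE1 activity was not measured here. Of 17 other sensors and regulators, 14 rose and 2 fell in MI and 13 and 2 in IR. In MI the largest rises were in Creb3l3 (2.19 ± 0.40) and Nucb2 (1.87 ± 0.23), and the falls in Map3k5, encoding the kinase ASK1 (-1.40 ± 0.12), and Wfs1 (-0.83 ± 0.08).

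**Figure D4:**
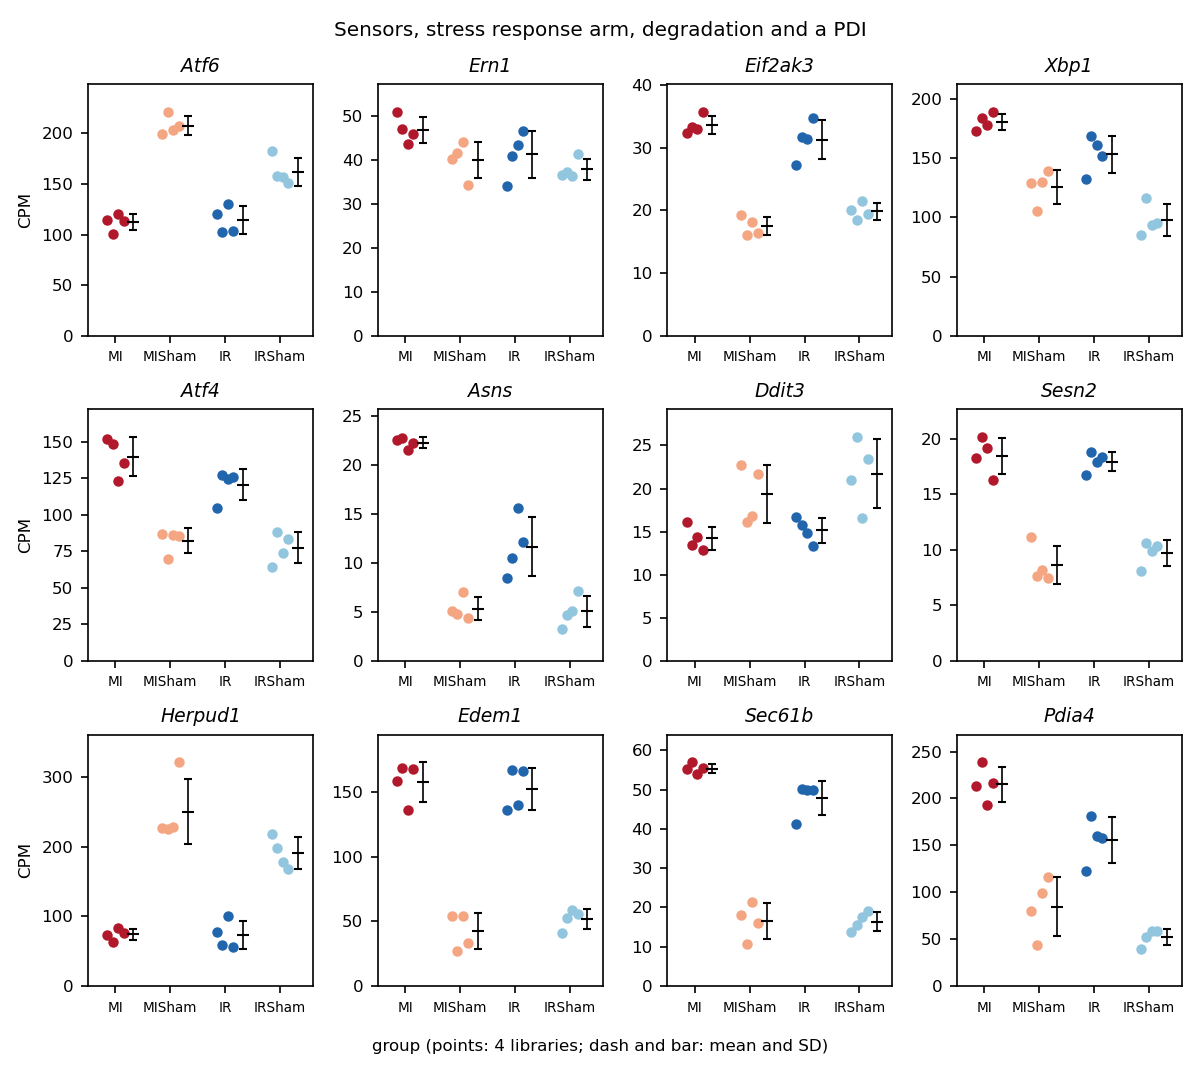
CPM (TMM-scaled) of 12 members in the 16 libraries, with points for libraries and a dash and bar for the mean and SD of each group. Atf6 and Herpud1 are lower in both injured groups than in their shams, Eif2ak3, Xbp1, Atf4, Edem1 and Sec61b are higher, and Asns in MI (21.5 to 22.7 CPM) is above all other libraries.

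Members of the integrated stress response also split. Atf4, its transcription factor, stood at 152, 148, 123 and 136 CPM in MI, 87.1, 69.7, 86.5 and 85.7 in MISham, 105, 127, 125 and 126 in IR, and 64.4, 88.0, 74.0 and 83.4 in IRSham. It rose by 0.76 ± 0.10 in MI and 0.64 ± 0.10 in IR. Asns, asparagine synthetase, a CARE-bearing ATF4 target, was measured at 22.5, 22.7, 21.5 and 22.2 CPM in MI, 5.09, 4.77, 7.05 and 4.39 in MISham, 8.46, 10.5, 15.6 and 12.1 in IR, and 3.26, 4.71, 5.08 and 7.15 in IRSham. Asns rose 4.17-fold in MI and 2.31-fold in IR (log2 2.06 ± 0.21 and 1.21 ± 0.21), and MI lay above every IR library. Sesn2, a stress-induced inhibitor of mTORC1 signalling, was measured at 18.3, 20.1, 19.1 and 16.3 CPM in MI, 11.1, 7.65, 8.19 and 7.51 in MISham, 16.8, 18.8, 17.9 and 18.3 in IR, and 8.05, 10.7, 9.87 and 10.4 in IRSham. It rose by 1.10 ± 0.13 and 0.88 ± 0.13, and the 2 injured groups overlapped.

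Ddit3, which encodes the pro-apoptotic factor CHOP, fell, by 0.44 ± 0.14 on the log2 scale in MI and by 0.52 ± 0.14 in IR (adjusted p = 0.00979 and 0.00417, edgeR). Its ranges, 12.9 to 16.1 CPM in MI and 16.1 to 22.7 in MISham, lay next to each other without overlapping, and those of IR (13.3 to 16.8) and IRSham (16.6 to 25.9) overlapped. The falls depended on the scaling: with library size alone they were -0.13 and -0.23 (adjusted p = 0.404 and 0.167, edgeR). Summed TPM gave 0.38 and 0.089 for Ddit3, in MI and IR in turn. Trib3, a pseudokinase downstream of CHOP, rose by 0.91 ± 0.17 in MI and was at 0.07 ± 0.18 in IR. Chac1, which degrades glutathione, was at 0.05 ± 0.28 in MI and fell by 0.88 ± 0.28 in IR, a call lost without IRSham replicate 1 or 3 (adjusted p = 0.0704 and 0.0527) and leaving out IR replicates 1 and 3 (0.0796, edgeR). Ppp1r15a (GADD34), which restores translation, was at 0.14 ± 0.12 and -0.14 ± 0.12 and passed the test in neither. With library size alone Ppp1r15a was higher in MI (0.45, adjusted p = 0.0029, edgeR), and with summed TPM in both, at 0.81 and 0.43 (adjusted p = 3.11e-06 and 0.00153, limma). Of 29 other ATF4 and integrated stress response genes, 21 rose and 3 fell in MI and 17 and 3 in IR, with the largest rises in MI in Gdf15 (3.59 ± 0.33) and Slc7a11 (2.72 ± 0.83) and the falls in Vldlr (-2.47 ± 0.24) and Stc2 (-2.18 ± 0.22).

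On the scale of CPM per kilobase of gene length, the most abundant members in IRSham were Calr (144), Hspa5 (140), P4hb (106) and Hsp90b1 (84.0), and the least abundant Derl3 (0.44), Trib3 (1.63) and Asns (1.67). In MI the order at the top was Calr (365), P4hb (294), Hspa5 (291) and Hsp90b1 (228) on the same scale, which is not TMM-scaled. The order differed in mean summed TPM, where Hspa5 (511) was above P4hb (422) in MI. Manf stood there at 339 TPM but at 33.2 CPM per kilobase. The opposite held in MI for Pdia6, at 16.5 TPM but 145 CPM per kilobase, and for Pdia3, at 94.9 TPM but 224. Summed TPM is thus a weak check on the counts of these genes. In IRSham Sesn2 (2.12 TPM) was below Asns (3.33).

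Uggt1 encodes the glucosyltransferase that senses misfolded glycoproteins and returns them to calnexin and calreticulin. The gene rose by 0.74 ± 0.09 in MI and 0.61 ± 0.09 in IR, from 101, 90.8, 104 and 99.1 CPM in MISham to 165, 175, 149 and 168 in MI, and from 93.8, 86.2, 87.9 and 100 in IRSham to 113, 156, 143 and 149 in IR. No injured library overlapped its own sham. The 2 sham groups did not differ beyond their spread (0.10 ± 0.09, adjusted p = 0.68, edgeR).

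Its transcripts shifted as well. Uggt1-201 is the annotated protein-coding transcript of 9033 bases with 41 exons, and Uggt1-209 is a 5399-base transcript annotated as a target of nonsense-mediated decay, with a coding region of 795 bases against 4653. By the GENCODE M21 exons (GRCm38, minus strand), Uggt1-209 starts 144 bases later, ends 3459 bases earlier in the last exon, lacks the last 7 bases of exon 7 (chr1:36211390-36211396) and skips the 24-base exon 21 (chr1:36176776-36176799). These 2 internal sites are shown because they are the differences within the body of the transcripts, with capitals for the bases that only Uggt1-201 has and 12 bases on each side:
Uggt1-201, exon 7 site: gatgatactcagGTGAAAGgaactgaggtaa
Uggt1-209, exon 7 site: gatgatactcaggaactgaggtaa
Uggt1-201, exon 21 site: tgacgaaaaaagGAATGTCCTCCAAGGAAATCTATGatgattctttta
Uggt1-209, exon 21 site: tgacgaaaaaagatgattctttta
The annotated coding region of Uggt1-209 ends at its base 829, shortly after the exon 7 site, and the exon 21 site lies beyond that end. Transcript TPM cannot show which of the 4 differences carries the change.

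Shares are of the summed TPM (transcript abundance scaled to a fixed total per library) of a gene's annotated transcripts. Uggt1-201 held 30, 30, 35.9 and 30.7% in MI, 55.5, 59.5, 51.9 and 68.1% in MISham, 43.6, 34.3, 35.8 and 35.2% in IR, and 67.9, 57.0, 55.7 and 56.5% in IRSham. Uggt1-209 held 61.2, 58.3, 54.7 and 50.5% in MI, 24.7, 15.7, 25.6 and 19.1% in MISham, 35.6, 56.1, 58.7 and 52.0% in IR, and 17.8, 32.9, 32.0 and 36.2% in IRSham. For Uggt1-201 both injured groups lay below both sham groups without overlap. For Uggt1-209, IR replicate 1 fell within the range of IRSham. The share of Uggt1-201 changed by -27.1 ± 3.9 percentage points in MI and -22.1 ± 3.9 in IR (limma, adjusted p = 0.000818 and 0.00556), and that of Uggt1-209 rose by 34.9 ± 5.1 and 20.9 ± 5.1 (adjusted p = 0.000948 and 0.0314), where 5.73% of the 25621 transcripts tested were called in MI and 3.59% in IR. The third transcript, Uggt1-204 (1501 bases, also annotated for decay), had a mean share of 8.37 ± 4.13% (SD, n = 4) after MI beside 1.61 ± 1.95% for its sham. After IR the mean was 6.89 ± 3.03% beside 3.6 ± 4.12%, and the share was not called in either.

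Two-sided exact permutation tests of 4 against 4 libraries gave p = 0.0286 for Uggt1-201 in both injuries and for Uggt1-209 in MI, the smallest p this design allows, and p = 0.0571 for Uggt1-209 in IR. Between the shams the exact permutation p was 0.83 for Uggt1-201 and 0.143 for Uggt1-209 (shares of 58.8 against 59.3% and of 21.3 against 29.7%, n = 4 libraries each). Those were 4 comparisons for each of 2 transcripts, and the p-values are unadjusted. The IR call for Uggt1-209 was lost in 6 of the 8 settings that left out 1 library, with changes of 16.9 to 25.9 points, and with only IR and IRSham in the fit (adjusted p = 0.148, limma). No member's share was called between the shams or in the difference of the responses.

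In level, Uggt1-209 rose in both injuries by 2.39 ± 0.27 and 1.7 ± 0.27 on the log2(TPM + 1) scale, where 59% of the 40489 transcripts tested were called in MI and 51.7% in IR. Mean TPM of Uggt1-209 was 15 ± 2.7 (SD, n = 4) after MI beside 2.09 ± 0.74 for its sham, and 11 ± 4.2 after IR beside 2.54 ± 0.72. Uggt1-201 rose by 0.51 ± 0.11 in each, to be read against the median of all tested transcripts, 0.60 in MI and 0.48 in IR, since TPM is not rescaled between libraries. Mean TPM of Uggt1-201 was 8.34 ± 0.43 after MI beside 5.57 ± 0.28, and 7.68 ± 1.15 after IR beside 5.09 ± 0.70, so Uggt1-209 gained more TPM than Uggt1-201 in both injuries.

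**Figure D5:**
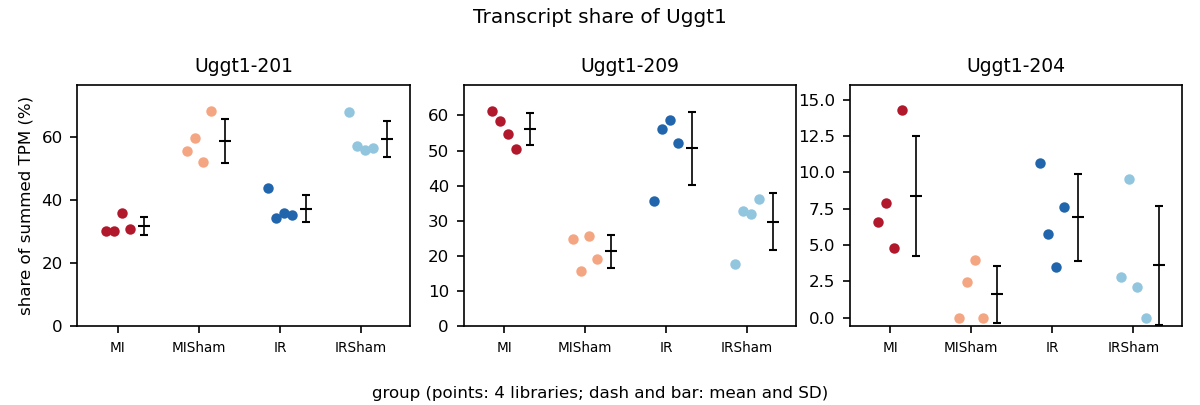
Share (%) of summed annotated TPM held by Uggt1-201, Uggt1-209 and Uggt1-204 in the 16 libraries, with points for libraries and a dash and bar for the mean and SD. Uggt1-201 is near 59% in both shams and 31.6 and 37.2% in MI and IR, and Uggt1-209 mirrors it.

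Of the other 33 members, 13 had at least 2 transcripts that could be tested, and only Asns had a share called, in IR. The coding Asns-201 held 100, 76.7, 92.2 and 91.1% in IR and 63.4, 71.9, 58.5 and 44.9% in IRSham, a change of 30.3 ± 7.4 points (limma, adjusted p = 0.0317). The 448-base noncoding Asns-206 changed by -30.4 ± 8.1 points (adjusted p = 0.0483, limma). Asns-206 was listed at 0 in 2 IR libraries, and Asns-201 stood at only 1.26 to 2.53 TPM in IRSham. Each call was lost in 6 of the 8 settings that left out 1 library.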

How the data were processed

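The deposited gene table holds raw read counts per gene and the deposited transcript table holds transcript abundances as TPM. Per the submitters' processing notes the build was GRCm39 and the tools included kallisto 0.50.1, featureCounts 2.0.1, HISAT2 2.2.1 and SAMtools 1.7, with no role, strand setting or annotation release given. Only GENCODE M21 and RefSeq tables of GRCm38 were at hand, so transcript names, promoters and coordinates are of that build, and 138330 of 163740 transcripts were matched to a gene. Transcript shares are therefore of annotated TPM alone. Matching the lists left 3 of 249 entries without a gene, and 2 columns naming no sample (an effective length and estimated counts) were not used.

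Counts of all 16 libraries were fitted with edgeR 4.0.16 in R 4.3.3 (TMM scaling, minimum count 10 and total count 15, quasi-likelihood F test, Benjamini-Hochberg adjustment over 19741 genes). Standard errors were derived from the fold change and its F statistic. Shares in percent were fitted with limma 3.58.1 for genes whose summed TPM averaged 5 or more and that had 2 or more transcripts of 5% or more. A share was called where it moved by 10 points or more and its adjusted p was below 0.05. Levels were tested as log2(TPM + 1) for transcripts whose TPM averaged 1 or more. DESeq2 1.42.0, library size alone, no filter, fits of 2 groups, a replicate block, left-out libraries and TPM were the alternatives. TPM rescaled by TMM was added after seeing the data. Both fits were also run on simulated data in which a small set of genes or transcripts was changed in MI alone. Those runs cannot test the scaling under changes as wide as the ones in these libraries.

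The members, lists and tests were chosen with earlier results of these data known. Library values are given for members called with a log2 fold change of at least 1 in an injury comparison, members called between the shams, the sensors, Xbp1, Atf4 and Uggt1. Of each other pathway list, the 2 called genes with the largest rises and falls in MI against MISham are named. Pdia4, P4hb, Syvn1 and Ern1 have antisense rows of low counts (medians of 0, 10, 18 and 0 counts), whose reads cannot be told from the genes' own if strand was not used. Protein sequences were not used here.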

Additional observations from a re-analysis of the deposited data

Results flagged for a closer look

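In 10 of the 136 groups of 4 libraries of the members and 3 of 20 groups of transcript shares, 1 library lay far from the other 3 by Dixon's test, and chance alone marks about 1 group in 20. Several of the libraries are the first replicate of the IR groups or the second of MISham. In MISham replicate 2, Calr was at 403 CPM beside 541 or more in the others, and Atf4 at 69.7 CPM beside 85.7 or more. In IR replicate 1, Sec61b was at 41.3 CPM beside 49.8 or more, and Atf4 at 105 CPM beside 125 or more. In IRSham replicate 1, Manf was at 34.4 CPM beside 37.7 or more, and Pdia3 at 207 CPM beside 265 or more. Dnajb11 was at 77.9 CPM in IRSham replicate 2 beside 80.7 or more. On the high side, Herpud1 was at 321 CPM in MISham replicate 4 beside 229 or less, Sel1l at 159 CPM in MI replicate 4 beside 146 or less, and Derl3 at 4.27 CPM in MI replicate 3 beside 1.80 or less. The share of Uggt1-201 was high in MI replicate 3 (35.9% beside 30.7% or less), IR replicate 1 (43.6% beside 35.8% or less) and IRSham replicate 1 (67.9% beside 57.0% or less).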

How the results depend on the processing

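Of 22 members called in both injury comparisons, 18 kept both calls under every alternative run, and Hspa5, Hyou1 and Manf kept the sham call. Pdia6 lost its IR call only with summed TPM rescaled by TMM (adjusted p = 0.0564, limma). Over single genes and transcripts, 2950 values kept direction and side of the threshold, 51 gained a call, 130 lost one and 5 reversed. All 5 reversals came with summed TPM not rescaled between libraries: Hspa5 (0.43) and Ddit3 (0.38) in MI, and Atf6 (0.17), Ddit3 (0.089) and Ppp1r15a (0.43) in IR. With that TPM, 1 member was lower in MI and 1 in IR, the medians were 1.17 and 1.16, the median of the response difference was 0.17, 3 members were higher between the shams and 1 between MI and IR. Rescaled by TMM, an alternative chosen after seeing the data, it gave 6 and 1. Library size alone gave medians of 0.82 and 0.92 and 2 members lower in IR, where 3754 of the 19741 genes tested were called lower. In the response difference DESeq2 called 1 member higher and 4 lower, beside 2.66% of all genes. Leaving out MISham replicates 1 and 3, 1 was higher there and 1 lower between the shams, and leaving out IR replicates 1 and 3, 3 were higher in MI than in IR.

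Leaving out 1 library at a time gave medians of 0.44 to 0.64 in MI and 3 to 7 members higher in MI than in IR. It gave 7 to 14 members higher between the shams, the most without MISham replicate 2. The change in the share of Uggt1-209 in IR ran from 16.9 to 25.9 points. With all libraries it was 20.9 points at adjusted p = 0.0501 for a summed TPM of at least 1, 0.0523 with the replicate block and 0.148 with only the 2 groups (limma), and 0.77 on the log2(share + 1) scale (adjusted p = 0.0708, limma). The cause of these changes was not tested.

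Between an injury and its own sham, libraries with the same replicate number did not deviate together over all genes (correlations of -0.056 to 0.051). These values show no pairing by number there. Pairing of MI with IR, or of MISham with IRSham, was not checked. With a replicate block 5 members were higher in MI than in IR, 8 in MISham than in IRSham, 20 in MI than in MISham and 23 in IR than in IRSham. Derl3, Chac1 and Trib3 stood below 10 CPM in every library, and the mean summed TPM of Asns was low in MISham (2.62) and IRSham (3.33). Whether depth limited the results for these genes was not tested.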
